A study of Mus musculus with 6 samples.

Results

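Endothelial and angiogenic genes were followed in the tibialis anterior (TA) muscle of aged mice as 10 genes chosen by symbol: Pecam1, Cdh5, Emcn, Kdr, Flt1, Tek, Ptprb, Egfl7, Vegfa and Angpt1. They were found by symbol in the tables of TPM (a level scaled for transcript length and library total) and joined by gene identifier to the table of read counts. All 10 were present among the 45777 genes of the count table, and all 10 were among the 16188 genes that passed the filter on low counts. RNA-Seq was performed on the TA muscle of male C57BL/6J mice, with 1 library per mouse and n = 3 per group. Vehicle mice received 5% DMSO and 5% Tween 80, and BML-260 mice received 5 mg/kg BML-260 in that vehicle, by intraperitoneal injection every 24 h for 4 weeks. BML-260 is a rhodanine-based compound used by the study to inhibit the phosphatase DUSP22. The sample labels name no transgene or deletion for either group, although the study's list of reagents enters these mice under the identifier of a targeted-mutation strain, which was not checked here. Their age was 24 months in the labels, 24 to 26 months in the study's methods and 27 months in its results text.

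Blood vessels are lined by endothelial cells, which hold together through VE-cadherin (Cdh5) and PECAM-1 and carry the sialomucin endomucin (Emcn) on their surface. VEGF-A (Vegfa), which muscle fibers also make, acts through the receptor VEGFR2 (Kdr), while VEGFR1 (Flt1) binds the same ligand and can act as a decoy. Angiopoietin-1 (Angpt1), made by cells around the vessel, activates the receptor Tie2 (Tek), and the phosphatase VE-PTP (Ptprb) restrains Tie2. Egfl7 is a secreted endothelial protein whose gene also carries the microRNA miR-126 in an intron. In whole muscle, fewer endothelial cells and less RNA per endothelial cell cannot be told apart.

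Promoter sequences of 6 of the 10 genes (Kdr, Flt1, Tek, Emcn, Egfl7 and Vegfa) were matched in the RefSeq table of the mouse assembly GRCm38.p6, as 9 windows from 250 bases before to 50 bases after a start site. A search on both strands for the ETS motif, CAGGAAG or CCGGAAG, which ETS factors of endothelial cells such as ERG and FLI1 can bind, found it in 3 of these 9 windows, of Emcn and Egfl7. The same letters were present in 20.9% of all 32851 windows of that length. The 3 matching windows are shown as stretches of 100 bases upstream of the start, 5′ to 3′ on the plus strand, with the motif or its reverse complement in capitals, because they are the windows of endothelial members that carry this motif. They lie at chr3:137340878-137340977 (Emcn), chr2:26580983-26581082 (Egfl7, first window) and chr2:26583765-26583864 (Egfl7, second window). Counted from the start, the Emcn stretch covers bases -200 to -101 and both Egfl7 stretches cover bases -100 to -1.
Emcn: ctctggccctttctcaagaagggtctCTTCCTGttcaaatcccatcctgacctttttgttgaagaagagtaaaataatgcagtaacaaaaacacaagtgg
Egfl7, first window: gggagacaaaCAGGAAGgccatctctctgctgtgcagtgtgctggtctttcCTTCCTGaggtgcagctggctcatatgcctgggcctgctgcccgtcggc
Egfl7, second window: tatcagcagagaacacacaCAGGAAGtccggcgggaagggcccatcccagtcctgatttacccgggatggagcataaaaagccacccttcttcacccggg
The core of the hypoxia response element, ACGTG, was found in 1 of the 9 windows, of Vegfa, against 19.6% of all windows. That window (chr17:46025114-46025413) belongs to a start site inside the Vegfa gene. The window at the 5′ end of the gene (chr17:46032328-46032627) did not hold these letters, and whether the match has any function was not tested. The FOXO motif GTAAACA (3.65% of all windows) and the AP-1 motif TGANTCA (7.81%) were in none of the 9. The microRNA carried by Egfl7 is shown in its mature form, miR-126a-3p, with the seed (bases 2 to 8) in capitals.
miR-126a-3p: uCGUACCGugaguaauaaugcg
It was not measured as a mature form here, since the counts are of the total RNA libraries by gene. The row of its hairpin gene, Mir126a, held 4 to 6 counts per library.

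The libraries held 39522890 to 56998875 counts. Vehicle 3 stood apart, with a TMM scaling factor of 1.20 against 0.914 to 1.02 in the other 5 libraries. It was the highest library for all 8 macrophage markers, 6 of 6 erythroid markers and 5 of 6 adipocyte markers. It was the lowest for 1 of 6 adipocyte markers and for 7 of 8 myofiber markers. The log2 fold change of each member is therefore given with and without it. The defining markers of fast TA fibers were present at high levels in every library, as the summed TPM of 8 myofiber genes was 94239 to 125710.

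With BML-260, 9 of the 10 genes differed from vehicle by less than the spread between mice, and Angpt1 was higher at an unadjusted p that did not pass adjustment. A gene was called at an unadjusted p under 0.05 with a fold change of at least 1.3. By edgeR's quasi-likelihood test 931 of 16188 genes (5.75%) were called, 145 higher (0.896%) and 786 lower (4.86%) with BML-260. Of the 10 genes, 1 was called, Angpt1, a single call beside that background. The log2 fold changes of the other 9 were all under 0.3 in size, and each of their 95% intervals held no change. The median log2 fold change of the 10 genes was 0.10, against -0.0039 over all tested genes, with 7 genes higher and 3 lower. Without vehicle 3 the median was -0.024, with 3 higher and 7 lower. Cdh5, Kdr, Emcn and Ptprb were the 4 genes whose sign turned without that library. No gene of the 16188 had an adjusted p under 0.05 by edgeR, where 966 had an unadjusted p under 0.05 and the smallest adjusted p was 0.0592. DESeq2 gave 95 genes with an adjusted p under 0.05, none of them among the 10, whose smallest adjusted p by DESeq2 was 0.672.

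The groups were also compared by their overlap. In 1968 of the tested genes (12.2%) the 3 BML-260 libraries lay entirely above or below the 3 vehicle libraries in normalized counts, meaning counts divided by DESeq2 size factors. None of the 10 genes was among them. At a share of 12.2% few of 10 genes would be apart in any case, so this count says little about them.

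**Figure D1:**
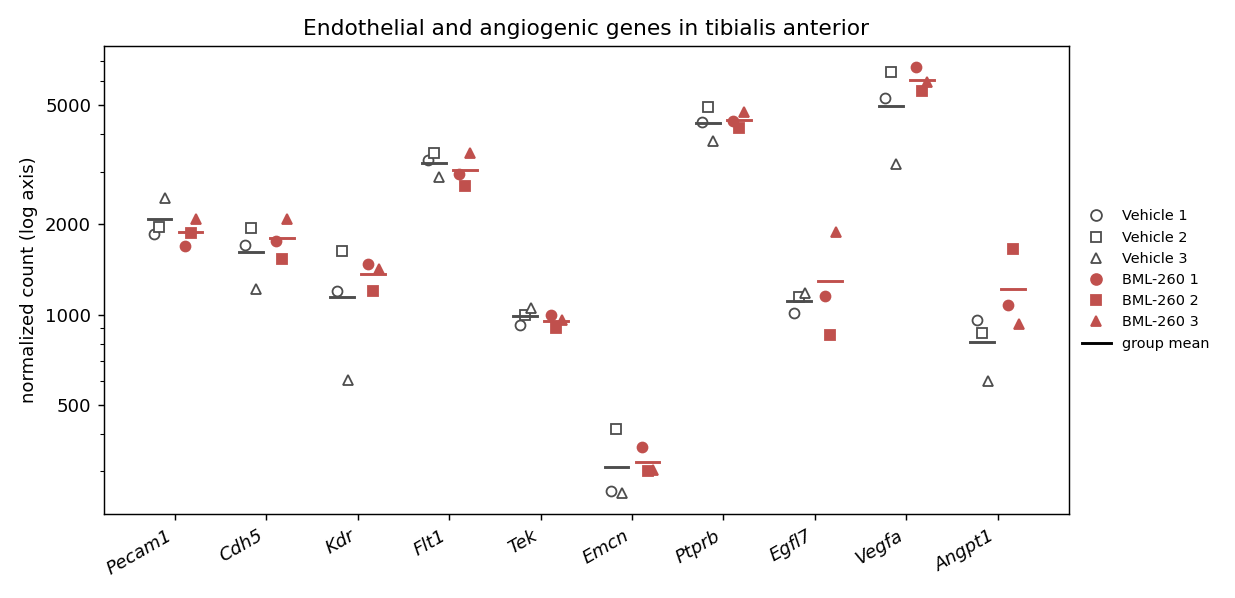
Normalized counts (log axis) of the 10 genes in the 3 vehicle libraries (open symbols) and the 3 BML-260 libraries (filled), with group means as bars and symbol shape giving the replicate number. The groups overlapped for every gene. In these counts vehicle 3 was the lowest of the 6 libraries for 6 genes, most clearly for Kdr (604) and Vegfa (3174). On TPM it was also lowest for Kdr (5.07) and Vegfa (45.8), but highest for Ptprb (15.7).

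The order of the levels was compared per length, in TPM, over the 6 libraries. Vegfa was the highest member with a mean of 58.1 TPM (45.8 to 63.4), followed by Egfl7 at 32.3 TPM (22.4 to 49.1), Pecam1 at 22.8 TPM (16.5 to 36.6) and Flt1 at 17.5 TPM (14.4 to 21.8). Each of these was above the next in all 6 libraries, although the ranges of neighbors in this order overlapped. Cdh5 followed at 15.6 TPM (14.0 to 18.9) and Ptprb at 13.6 TPM (12.0 to 15.7), with Cdh5 above Ptprb in 5 of 6 libraries. The lowest members were Angpt1 at 8.58 TPM, Emcn at 7.93 TPM, Kdr at 7.70 TPM and Tek at 7.64 TPM. Angpt1 was above Emcn in 3 of 6 libraries and Emcn above Kdr in 3 of 6, so the order among these genes was not resolved.

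Among the junction and surface genes, none of the 3 differed between the groups beyond the spread of the libraries. Pecam1 (chr11:106654213-106715281, GRCm38) had 1852, 1967 and 2447 normalized counts in vehicle 1, 2 and 3 and 1689, 1875 and 2090.5 in BML-260 1, 2 and 3. The groups overlapped, with the highest value in vehicle 3. The log2 fold change was -0.15 (SE 0.16, unadjusted p = 0.366 and adjusted p = 0.821 by edgeR), and it was -0.022 without vehicle 3. PECAM-1 is also carried by platelets and leukocytes. Their markers moved as well: 2 of 6 platelet markers and 7 of 8 macrophage markers were called lower (6 of 8 macrophage markers without vehicle 3), and their part in the level of Pecam1 was not tested. The summed TPM of the macrophage markers was 118 to 511 in vehicle and 74.8 to 94.1 in BML-260, and that of the platelet markers was 13.3 to 51.0 and 8.72 to 13.1. No defining macrophage or platelet marker was at 0 in all libraries.

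Cdh5 (chr8:104101613-104144504), an adhesion molecule largely restricted to endothelium, had 1709, 1941 and 1221 normalized counts in vehicle and 1765, 1532 and 2089 in BML-260. Vehicle 3 was the lowest library and BML-260 3 the highest, and the other 4 lay between them. The log2 fold change was 0.14 (SE 0.20, adjusted p = 0.860 by edgeR), and -0.026 without vehicle 3. Emcn (chr3:137341062-137431069), an anti-adhesive mucin of veins and capillaries, had 257, 415 and 254 normalized counts in vehicle and 362, 301 and 303 in BML-260. All 3 BML-260 values lay inside the vehicle range. The log2 fold change was 0.06 (SE 0.23, adjusted p = 0.948 by edgeR), with a 95% interval of -0.46 to 0.59, and -0.056 without vehicle 3. An overlapping long noncoding RNA, Gm38650, held 24 to 74 counts per library, and whether the counting used strand is not given in the sources used here.

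For the VEGF axis, the ligand and both receptors overlapped between the groups, and vehicle 3 was the library farthest from the rest for Vegfa and Kdr. Vegfa (chr17:46016993-46032377) had 5276, 6445 and 3174 normalized counts in vehicle and 6694, 5574 and 5974 in BML-260. Vehicle 2 lay within the BML-260 range, vehicle 1 just below it and vehicle 3 far below it. The log2 fold change was 0.29 (SE 0.25, adjusted p = 0.800 by edgeR), with a 95% interval of -0.28 to 0.86, and 0.051 without vehicle 3. Kdr (chr5:75932827-75979072), the main signaling receptor, had 1196, 1625 and 604 normalized counts in vehicle and 1474, 1199 and 1424 in BML-260. The 3 BML-260 values of Kdr lay within the vehicle range. The coefficient of variation of Kdr was 44.9% among vehicle libraries and 10.7% among BML-260 libraries. Its log2 fold change was 0.26 (SE 0.31, adjusted p = 0.840 by edgeR), with the widest interval of the 10 genes, -0.46 to 0.97, and it was -0.047 without vehicle 3. Flt1 (chr5:147561604-147726438) had 3276, 3465 and 2889 normalized counts in vehicle and 2954, 2677 and 3471 in BML-260. Its log2 fold change was -0.08 (SE 0.15, adjusted p = 0.891 by edgeR), -0.15 without vehicle 3, and the groups covered nearly the same range.

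For the Tie2 axis, the ligand Angpt1 was the only member called. Angpt1 (chr15:42424667-42676977) had 956, 869 and 602 normalized counts in vehicle 1, 2 and 3 and 1078, 1656 and 932 in BML-260 1, 2 and 3. The lowest BML-260 value, in replicate 3, was under vehicle 1, so the groups overlapped, and BML-260 2 was far above all others. The group means were 809 ± 184 and 1222 ± 383 normalized counts (SD, n = 3). The fold change was 1.51 with a 95% interval of 1.01 to 2.25 (log2 fold change 0.59, SE 0.25, unadjusted p = 0.0467, adjusted p = 0.788 by edgeR). Without BML-260 2 the log2 fold change was 0.31 by edgeR (unadjusted p = 0.215), and without vehicle 3 it was 0.42 (unadjusted p = 0.0780). The call also ended without vehicle 2 (0.65, unadjusted p = 0.0703) or BML-260 1 (0.67, unadjusted p = 0.0569). On TPM, Angpt1 had 8.01, 6.74 and 6.85 in vehicle and 8.14, 14.0 and 7.79 in BML-260, and limma on log2(TPM + 1) gave an unadjusted p of 0.165. An overlapping long noncoding RNA, Gm41313, held 142 to 317 counts per library.

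The receptor and its phosphatase had the narrowest intervals of the members. Tek (chr4:94739086-94874976) had 923, 995 and 1054 normalized counts in vehicle and 997, 899.6 and 956 in BML-260, with coefficients of variation of 6.64% and 5.13%. Its log2 fold change of -0.06 (SE 0.13, adjusted p = 0.902 by edgeR) had a 95% interval of -0.36 to 0.23 and was -0.015 without vehicle 3. Ptprb (chr10:116275502-116389538) had 4383, 4916 and 3797 normalized counts in vehicle and 4433, 4185 and 4735 in BML-260. All BML-260 values lay within the vehicle range, and the log2 fold change was 0.025 (SE 0.15, adjusted p = 0.973 by edgeR) or -0.066 without vehicle 3. As fold changes, the 95% intervals were 0.781 to 1.18 for Tek and 0.800 to 1.29 for Ptprb. A 1.3-fold rise or fall lay outside both, only narrowly for a rise of Ptprb. Changes within these intervals could not be told from no change with 3 mice per group.

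Egfl7 (chr2:26581083-26592682) had 1012, 1146 and 1181 normalized counts in vehicle and 1155, 853 and 1883 in BML-260. The BML-260 group held both the lowest and the highest library, and its coefficient of variation was 40.8% against 7.99% in vehicle. The log2 fold change was 0.22 (SE 0.27, adjusted p = 0.840 by edgeR), 0.26 without vehicle 3 and -0.15 without BML-260 3. Egfl7 was 1 of 3 members, with Flt1 and Angpt1, that varied more among BML-260 than among vehicle libraries, as the other 7 varied more among vehicle libraries.

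**Figure D2:**
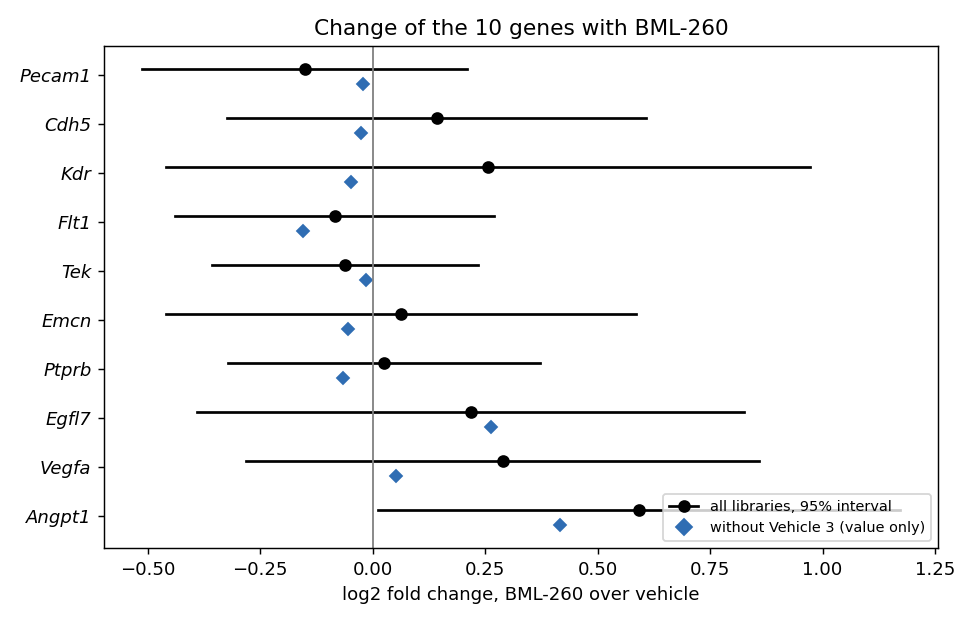
Log2 fold changes of the 10 genes, BML-260 over vehicle, with 95% intervals from edgeR's quasi-likelihood test over all 6 libraries (black) and the values without vehicle 3 (blue diamonds, no interval). The interval of Angpt1 (0.011 to 1.17) was the only one that did not hold 0, and without vehicle 3 Kdr and Vegfa moved to -0.047 and 0.051.

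The 8 endothelial members (all but the ligands Vegfa and Angpt1) were also summed as a measure of endothelial RNA in the muscle. The sum was 14841 ± 1525 normalized counts in vehicle and 15101 ± 1731 in BML-260 (SD, n = 3). On TPM it was 130 ± 23.0 and 121 ± 23.8. The difference was smaller than the spread in both units, and it had opposite signs in them. Vehicle 3 had the lowest sum of the 6 libraries in normalized counts (13447) and the highest on TPM (156). Its place among the libraries thus depended on the unit. On TPM the log2 difference was -0.11, and 0.030 without vehicle 3. On log2(TPM + 1) the median of all genes was shifted by -0.089, and 4 of the 10 genes were higher and 6 lower with BML-260.

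Ratios of TPM within a library do not depend on how the library was scaled. The log2 ratio of Flt1 to Kdr, the decoy to the signaling receptor, was 1.28, 0.92 and 2.10 in vehicle and 0.82, 0.98 and 1.10 in BML-260. The high value of vehicle 3 set the group difference of -0.47, and the groups overlapped (exact 2-sided permutation test, p = 0.3). Without vehicle 3 the difference was -0.13. The log2 ratio of Vegfa to Kdr, ligand to receptor, was 2.91, 2.76 and 3.17 in vehicle and 2.94, 2.99 and 2.83 in BML-260, a difference of -0.027 (exact p = 0.9) and of 0.086 without vehicle 3. Each of the pair alone was lowest in vehicle 3, while their ratio there was the highest of the 6. The log2 ratio of Angpt1 to Tek was 0.23, -0.071 and -0.68 in vehicle and 0.28, 1.01 and 0.097 in BML-260, a difference of 0.64 (exact p = 0.2) and of 0.39 without vehicle 3. BML-260 3 lay below vehicle 1 here, so these groups overlapped too. With 3 against 3 libraries this test cannot give a p under 0.1, and no ratio of the 3 reached it.

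**Figure D3:**
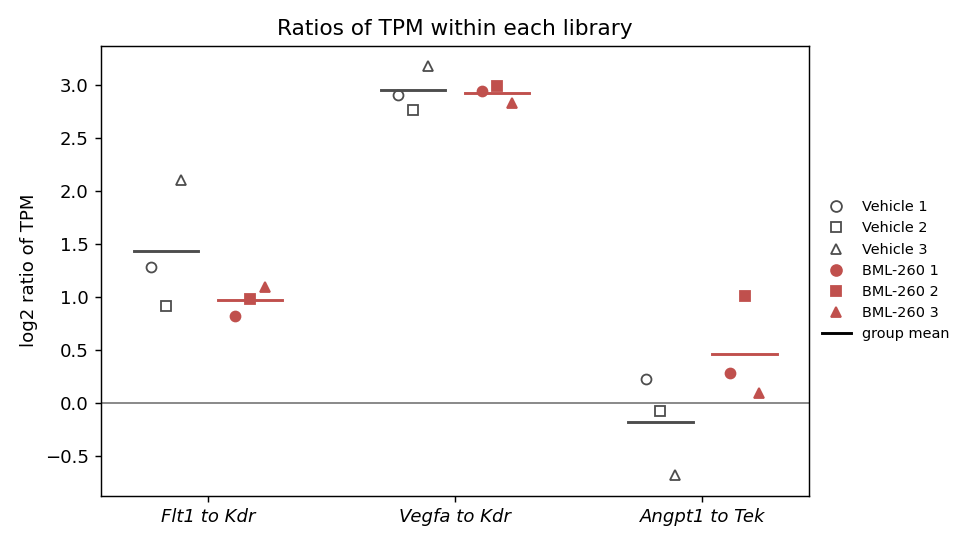
Log2 ratios of TPM within each library, for Flt1 to Kdr, Vegfa to Kdr and Angpt1 to Tek, with vehicle libraries as open and BML-260 libraries as filled symbols and group means as bars. The groups overlapped in all 3 ratios, with vehicle 3 at the end of its group each time (2.10, 3.17 and -0.68).

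The profiles of the members over the 6 libraries were compared by the root mean square distance of centred log2 CPM (counts scaled to a common library total). The closest members were Flt1 and Ptprb (0.090), then Kdr and Vegfa (0.126), and the farthest apart were Egfl7 and Angpt1 (0.661). Among 7569 expressed genes with a curated name, those nearest to the mean profile of the 8 endothelial members were Ncapd3, Atg2a, Gpatch8, Nacc1 and Camk2b, at distances of 0.047 to 0.059. Among those nearest to Vegfa were Emc9, Atp5b, Jarid2 and Idh3b (0.071 to 0.084). Those nearest to Angpt1 were Ppat, Hlf, Cbfb, Sec61a2 and Myl3 (0.124 to 0.152). None of these named genes is in the vessel lists, and Atp5b and Idh3b encode subunits of mitochondrial enzymes. All of these genes were read from the same 6 libraries, so differences in depth and makeup between the libraries enter every profile.

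Other genes of the same pathways were taken from lists. Of 20 further pan-endothelial genes 0 were called. Their median was -0.013 on the log2 scale. The groups were apart in 2 of the 20 (Erg higher, Ecscr lower), where 12.2% of all tested genes were apart. The most abundant of them were S1pr1 (14.1 TPM, log2 fold change -0.28, adjusted p = 0.788 by edgeR), a sphingosine phosphate receptor, and Esam (11.4 TPM, -0.10, adjusted p = 0.872), a junction molecule, at -0.18 and -0.065 without vehicle 3. Of 10 capillary genes 0 were called, and Fabp4, the fatty acid carrier that led the list at 359 TPM, had a log2 fold change of 0.0047. Rgcc had -1.29 (unadjusted p = 0.0580) with vehicle 3 and -0.043 without it. Of 7 lymphatic genes 0 were called, with Lyve1 at -2.27 with vehicle 3 and 0.37 without it. Pericyte and smooth muscle genes showed 0 of 10 called, with a median of 0.13, and Rgs5, a pericyte marker at 281 TPM, had 0.18 (adjusted p = 0.826) and 0.047 without vehicle 3.

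Of the 7 other VEGF pathway genes 1 was called, Vegfd, a ligand of lymphatic growth. Vegfd fell by 0.93 on the log2 scale (SE 0.35, unadjusted p = 0.0271) with the highest value in vehicle 3, and the difference was -0.46 without that library (unadjusted p = 0.0912). Vegfb, at 31.2 TPM the most abundant of them, had a log2 fold change of 0.43 (adjusted p = 0.789) and of 0.12 without vehicle 3, and the co-receptor Nrp1 had 0.060 and -0.035. Of 6 other Tie pathway genes 0 were called, and Tie1, the partner receptor of Tie2, had 0.12 (adjusted p = 0.860). Of 10 tip cell genes 1 was called, Esm1, at 2 to 24 counts per library. Of 9 angiogenesis inhibitors 1 was called lower, Thbs1, with 3453 normalized counts in vehicle 3 and 428 to 697 in the other 5 libraries. Without vehicle 3 Esm1 went from -1.78 to -1.74 (unadjusted p = 0.0602) and Thbs1 from -1.54 to -0.29, and neither was called. Of 12 hypoxia genes 3 were called lower, Egln3, Slc2a1 and Hif1a, and 1 of 12 without vehicle 3, where 4.86% of all genes were called lower. In this list 5 genes were higher and 7 lower, with a median of -0.14. Its most abundant genes were not called: Bnip3 had -0.89 and Egln1 0.40, or -0.16 and 0.18 without vehicle 3. Of 10 arterial genes 2 were called lower, Bmx (-1.36, at 18 to 107 counts per library) and Sema3g (-0.59). In this list 8 genes were lower, and 9 without vehicle 3. The groups were apart in 3 of the 10, all lower, where 6.75% of all genes were lower without overlap. Without vehicle 3 none was called, with Bmx at -0.94 (unadjusted p = 0.0528) and Sema3g at -0.27, while the median of the list was -0.30 with and -0.33 without that library.

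Venous and activated endothelial genes were the vessel list with most calls. Of 9 tested genes 5 were called, all lower with BML-260, where 4.86% of all genes were called lower. These 5 were also the ones whose groups did not overlap, against 6.75% of all genes that were lower without overlap. The list was chosen with earlier results of these data known, so these shares are background and not a test of the list. The median of the list was -0.49, and without vehicle 3 it was -0.44 with 4 genes called. Selp (P-selectin), which captures leukocytes on inflamed vessels, had 166, 66.4 and 182 normalized counts in vehicle and 38.8, 37.9 and 51.6 in BML-260. It fell by 1.70 on the log2 scale (SE 0.40, unadjusted p = 0.00248, adjusted p = 0.598 by edgeR), and by 1.47 without vehicle 3. By DESeq2 its adjusted p was 0.0222, so Selp was among the 95 genes that passed there. The other called genes were the chemokine-binding Ackr1 (-1.68), the adhesion molecules Icam1 (-1.20) and Vcam1 (-0.49), and the secreted Lrg1 (-0.75). Without vehicle 3 these values were -1.97, -0.74, -0.52 and -0.44, and Lrg1 was no longer called (unadjusted p = 0.0568). Ackr1 held only 10 to 47 counts per library. Vwf, the most abundant gene of the list after Lrg1, had 1786, 1935 and 1998 normalized counts in vehicle and 1379, 1166 and 1808 in BML-260 and was not called (-0.40, unadjusted p = 0.0561). Nr2f2 (0.044), Ephb4 (-0.19) and Aplnr (-0.0080) were not called either, and had 0.21, -0.12 and -0.28 without vehicle 3. The calls were thus confined to a part of the list. Sele was too low to be tested, with 0 to 37 counts per library. Selp, Vwf, Icam1, Vcam1 and Ackr1 are also made by blood cells or other cells, and the macrophage and platelet markers given beside Pecam1 moved in the same direction. Among erythroid markers 4 of 6 were called lower (2 of 6 without vehicle 3). Of 8 lymphocyte markers 1 could be tested, the leukocyte gene Ptprc, which was called lower (-0.95), as was 1 of 8 fibroblast markers, while 2 of 5 adipocyte markers (0 without vehicle 3), 0 of 6 Schwann cell markers and 0 of 8 myofiber markers were called. Without vehicle 3, 3 of 6 Schwann cell markers were called higher and the median of that list turned from -0.41 to 0.58, and 1 fibroblast marker was called in each direction. Their part in the venous and activated genes was not tested. The difference between this list and the 10 genes was not tested.

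**Figure D4:**
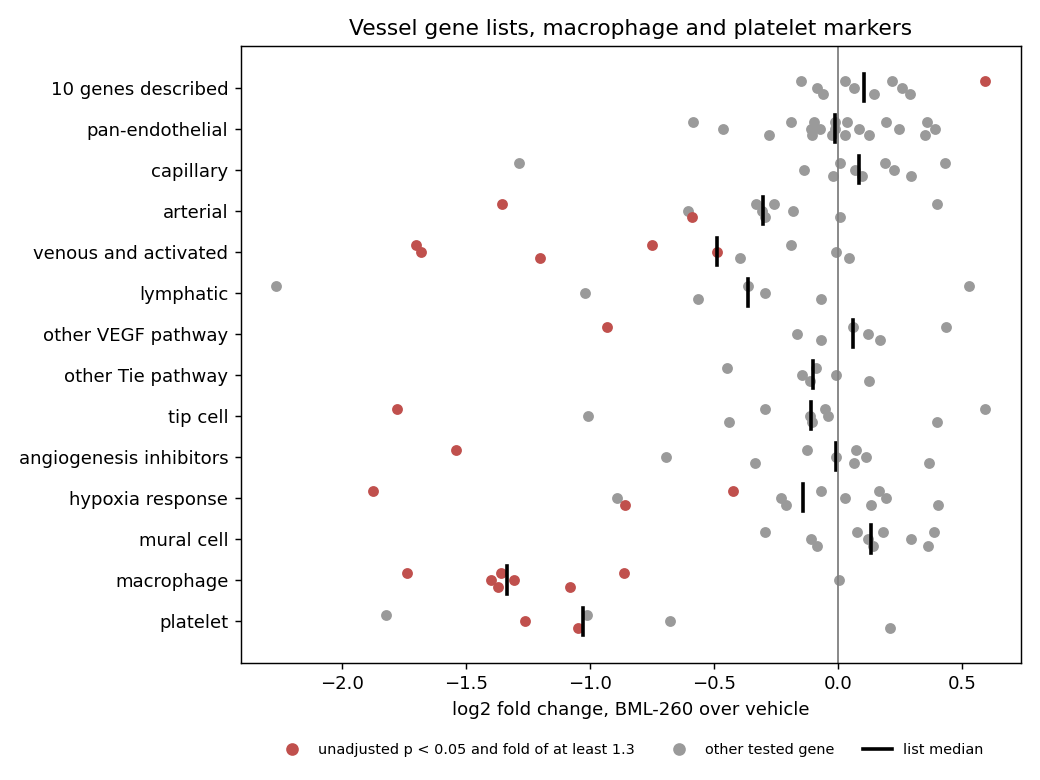
Log2 fold changes, BML-260 over vehicle, of the tested genes of the lists plotted (points, red where the unadjusted p was under 0.05 and the fold at least 1.3) with the list median (black bar). The 10 genes and the pan-endothelial list lay around 0 (medians 0.10 and -0.013), the venous and activated list lay lower (-0.49), and the macrophage markers had a median of -1.33 (-0.59 without vehicle 3).

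**Figure D5:**
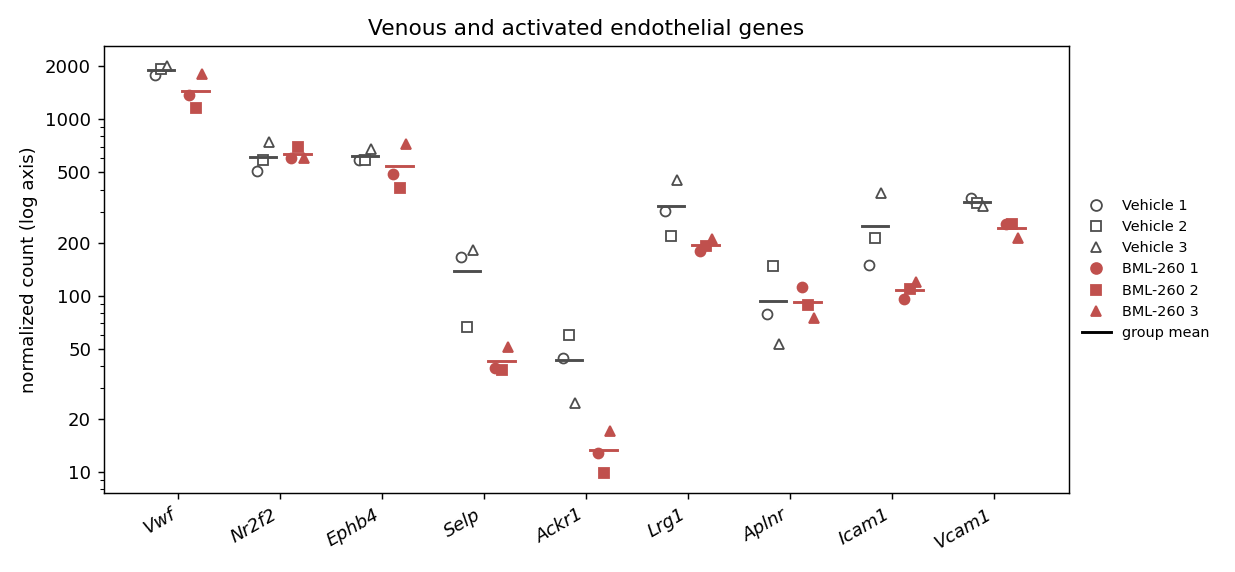
Normalized counts (log axis) of the 9 tested venous and activated endothelial genes in the 3 vehicle libraries (open) and 3 BML-260 libraries (filled), with group means as bars. The groups did not overlap for Selp, Ackr1, Lrg1, Icam1 and Vcam1, and they overlapped for Vwf, Nr2f2, Ephb4 and Aplnr.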

How the data were processed

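RNA was extracted from TA muscle with TRIzol, and libraries of total RNA were made with a stranded kit. According to the submitters' processing notes, reads were trimmed with Trimmomatic 0.38, mapped to mm10 with HISAT2 2.1.0 and Bowtie2 2.3.4.1, and assembled with StringTie 2.1.3b. The authors deposited raw read counts per gene for the 6 libraries in 1 table, and TPM values, scaled for transcript length and library total, in a table per library. Whether counting used strand, and how multi-mapped reads were treated, is not given in the sources used here.

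Counts were analyzed in R 4.3.3 with edgeR 4.0.16: filterByExpr, TMM scaling, and the quasi-likelihood F-test of BML-260 (n = 3) against vehicle (n = 3) over all 16188 genes kept, with Benjamini-Hochberg adjustment. The standard error is the log2 fold change divided by the square root of F. Normalized counts used DESeq2 1.42.0 size factors over the tested genes. Ratios were compared by exact permutation. No pseudocount entered the ratios. Alternatives were RLE and upper quartile scaling, other filters, DESeq2, limma 3.58.1 (voom with quality weights, or log2 TPM after adding 1 or 0.1), a replicate block and leaving out each library. The fits were tested on simulated data. Figures used matplotlib 3.10.9 in Python 3.11.15.

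The members, lists and tests were chosen with earlier results of these data known. From each vessel or pathway list the text names the 2 tested genes with the highest mean TPM and the gene with the smallest p, or a part of them. One gene near Vegfa in profile is not reported here. Erg, Egln3, Hif1a, Ackr1, Icam1, Vcam1, Nr2f2, Ephb4, Aplnr and Sele were chosen after their values were seen. Alternatives for the venous and pan-endothelial counts and for genes at an adjusted p under 0.05 were added after values were seen. Coordinates and names come from RefSeq (GRCm38.p6, the assembly of mm10), in which 45679 of the 45777 counted genes were found. P-values of the fits set a group difference against the spread between mice, which the fits share in part over genes. Those of the ratios compare the observed grouping of the libraries with all other groupings.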

Additional observations from a re-analysis of the deposited data

How the results depend on the processing

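With 3 libraries per group and intervals 0.59 to 1.43 wide on the log2 scale, only large changes of single members could be detected. Beside the 931 genes called, the count was 1416 with no filter (at least 1 count in total), 446 with limma on log2(TPM + 1), and 503 to 2223 when each library was left out, lowest without BML-260 2 and highest without vehicle 1. The share of calls that were higher with BML-260 was 15.6%, against 30.8% with the replicate block, 28.7% with limma voom and 37.6% without vehicle 1. Genes with an adjusted p under 0.05 numbered 0 with edgeR, 1 with no filter, 1 with at least 10 counts in every library, 95 with DESeq2, 1 with voom and 0 to 9 with a library left out. Members called numbered 0 with voom and on log2(TPM + 1) and log2(TPM + 0.1), and 0 to 1 with a library left out; Angpt1 had log2 fold changes of 0.42, 0.38 and 0.41 there (unadjusted p = 0.0883, 0.165 and 0.155) and 0.31 to 0.75 with a library left out. Further pan-endothelial genes called numbered 0, 1 with the replicate block and 0 to 4 with a library left out, most without vehicle 2. Members whose groups did not overlap numbered 0, and 0 to 3 with a library left out. Kdr, Emcn and Vegfa were apart without vehicle 2, where 23.7% of all genes were apart. Angpt1 was apart without vehicle 1 and without BML-260 3, where 32.7% and 23.1% of all genes were apart. Venous and activated genes called lower numbered 4 to 7 under all alternatives run.

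Signs turned for members near 0. With voom the log2 fold changes were -0.0028 for Cdh5, -0.0081 for Emcn and -0.060 for Ptprb. On log2(TPM + 1) and log2(TPM + 0.1) they were -0.048 and -0.051 for Emcn, -0.11 and -0.12 for Ptprb, and -0.0072 and -0.0087 for Egfl7. With each library left out they spanned -0.026 to 0.29 for Cdh5, -0.047 to 0.60 for Kdr, -0.19 to 0.0039 for Flt1, -0.056 to 0.33 for Emcn, -0.066 to 0.12 for Ptprb and -0.15 to 0.45 for Egfl7, and the log2 ratio of Vegfa to Kdr spanned -0.12 to 0.086. None of these passed the threshold, and the cause was not tested. RLE and upper quartile scaling turned no sign of a member. Replicate numbers pair the samples by number only, and the design gives no pairing. Deviations of same-numbered libraries from their group means correlated at 0.16, 0.054 and 0.11 over genes. All 6 libraries were closest to the library of their own number in the other group. Deviations from a mean of 3 libraries sum to 0, so these 6 matches are not separate results, and they cannot decide whether the samples were paired. With the replicate block 1057 genes were called, 326 higher and 731 lower, and Angpt1 was the 1 member called.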
